A study of Homo sapiens with 61 samples.

Results

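Axon guidance ligands and their receptors were followed here across 61 RNA-seq libraries of human neurons. The genes were chosen by a rule on symbols, set with earlier results of these data known. It took all protein-coding genes of the semaphorin, ephrin, netrin, netrin-G and Slit families of ligands. It also took those of the plexin, Eph, UNC5, Robo, neuropilin and DCC families of receptors. This gave 71 members, 37 ligands and 34 receptors, of 58440 gene identifiers in the count tables. In experiment 1, 66 members passed a filter on low counts, and EFNA4, EPHA1, NTN5, ROBO4 and SEMA3G did not. In experiment 2, 70 passed, and ROBO4 did not. The largest families were the semaphorins with 20 members, the Eph receptors with 14, the plexins with 9 and the ephrins with 8.

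The neurons came from the human induced pluripotent stem cell line WTC11, an established line, in which the transcription factor NGN2 was expressed to make them. Experiment 1 compared WT cells with 3 knockouts: DLK KO cells, which lack the kinase DLK (gene MAP3K12), LZK KO cells, which lack the kinase LZK (MAP3K13), and DLK LZK double KO cells, which lack both, with 4 untreated and 4 vincristine libraries each. Experiment 2 compared Control gRNA cells, which carry a scrambled guide, with ATF2 gRNA and JUN gRNA cells, in which CRISPR interference silences the transcription factors ATF2 or JUN. Each of these groups had 5 libraries, except vincristine-treated ATF2 gRNA cells, which had 4. Cultures were treated on day 14 with 5 nM vincristine, a drug that destabilises microtubules, for 16 hours, and untreated cultures received the vehicle DMSO. Every genotype or guide is represented by 1 labelled line, so that the genotype and other differences between lines cannot be told apart. The labels do not say that replicates were separate differentiations, so the p-values measure the spread between these libraries, which may be technical.

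Guidance ligands steer a growing axon by binding receptors on its tip. Semaphorins act on plexins, and most of the secreted SEMA3 proteins need a neuropilin as partner. Ephrins act on Eph receptors and Slits on Robo receptors. Netrin-1 acts on DCC, which mediates attraction, and on the UNC5 receptors, which mediate repulsion. Vincristine damages axons, and DLK and LZK are kinases that carry the damage signal from the axon to JNK, which phosphorylates JUN and ATF2. The question put to the members was which of them changed with vincristine, and how that change and the untreated levels differed between the lines.

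Total counts per library ran from 8.41 M to 14.65 M in experiment 1 and from 38.9 M to 88.4 M in experiment 2, where M is 1e6 counts. The targeted genes followed the labels: MAP3K12 stood at 16.6 to 31.4 CPM (counts per 1e6, TMM scaled) in its 16 knockout libraries against 72.8 to 120.7 CPM in the other 16, MAP3K13 at 26.7 to 37.8 against 96.8 to 144.7 CPM, ATF2 at 0.106 to 0.998 CPM under its guide against 111.1 to 166.1 CPM, and JUN at 2.24 to 7.74 against 81.7 to 254.7 CPM in Control gRNA. Neuron markers were high in every library, with a summed level over 9 genes of 6761 to 11280 CPM in experiment 1 and 6363 to 9595 CPM in experiment 2. The 3 glutamatergic markers summed to 156.2 to 479.3 and 348.2 to 500.4 CPM, with SLC17A8 close to 0, while POU4F1, a factor of peripheral sensory neurons, stood at 434.9 CPM in untreated WT, although the labels name the cells cortical. A single library stood apart. WT vincristine replicate 4 had a stronger trend of expression with GC content than any other. Its difference in log2 CPM between genes of 60% and 40% GC was -0.583, against -0.372 to 0.303 in the other libraries of its experiment. Some counts and members are also given without that library, and all other values of vincristine-treated WT include it.

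Per kilobase of exon, the most abundant member in untreated WT was ROBO1, a receptor for Slits, at 73.0 ± 1.79 CPM per kb (SD, n = 4), followed by its ligand SLIT2 at 45.4 ± 3.04 and by the membrane semaphorin SEMA6D at 33.4 ± 1.32. ROBO2 at 28.3 ± 0.378, the ephrin EFNB2 at 27.9 ± 1.81 and the ephrin receptor EPHA4 at 27.2 ± 1.42 CPM per kb came next and did not differ from each other beyond their spread. In untreated Control gRNA cells ROBO1 again led, at 42.8 ± 1.56 CPM per kb (n = 5), then ROBO2 at 37.5 ± 2.26. EPHA4 at 28.4 ± 1.09 and EFNB3 at 28.3 ± 1.03 could not be ordered. UNC5B was a minor transcript in both, with 0.769 ± 0.0858 CPM per kb in WT (rank 53 of 71) and 2.63 ± 0.216 in Control gRNA cells (rank 37). The receptor DCC had rank 10 in Control gRNA cells, at 19.2 ± 1.27 CPM per kb, against 3.64 ± 0.200 in WT. The experiments were counted and scaled separately, so these 2 orders are descriptions side by side.

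In both control lines vincristine changed many of the members, more of them downward than upward. In WT, 34 of the 66 tested members passed the test (51.5%), 11 higher and 23 lower, against 30.2% of all 18235 genes tested, of which 15.7% were higher and 14.5% lower. The median member moved by -0.227 (log2) and the median of all genes by 0. Without WT vincristine replicate 4, 35 members passed, 13 higher and 22 lower. In Control gRNA cells 39 of 70 passed (55.7%), 13 higher and 26 lower, against 35.3% of 20759 genes (17.1% higher and 18.1% lower), with a member median of -0.121. All counts use edgeR's quasi-likelihood test with Benjamini-Hochberg adjustment over all genes of an experiment, and a member is called when its adjusted p is under 0.05. In bulk RNA, fewer cells of a kind and less RNA per cell cannot be told apart.

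Ephrins and Eph receptors gave many of the lower calls. Of 13 Eph receptors tested in WT, 7 fell and 2 rose, with a median of -0.519, and of 14 in Control gRNA cells 7 fell and 2 rose, with a median of -0.323. Of the ephrins, 4 fell and 1 rose in each line, of 7 tested in WT and of 8 in Control gRNA cells. Of the 9 plexins, 1 rose and 1 fell in WT (22.2% called) and 3 rose in Control gRNA cells (33.3%). Of all genes, 30.2% were called in WT and 35.3% in Control gRNA cells, the background for every family here. The PLXNA3 call in Control gRNA cells was lost in 9 of 18 alternatives. Semaphorins split, with 4 higher and 6 lower of 19 in WT and 5 higher and 6 lower of 20 in Control gRNA cells. All 3 Slits fell in Control gRNA cells, where ROBO1 and ROBO2 fell as well, and in WT 1 Slit rose and 1 fell and no Robo was called.

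The 2 lines are separate cultures with no library in common, and 29 members were called in both, which is 85.3% of the WT calls and 74.4% of the Control gRNA calls, against 69.3% and 52.8% over all genes tested in both. Of these, 27 moved the same way (93.1%), against 98.7% of the 3714 genes called in both lines among all genes. Higher in both were the receptors UNC5B, EPHA2, NRP2 and PLXNC1 and the ligands SEMA3A, SEMA3B, SEMA4F, SEMA6B and EFNB2. The 18 that were lower in both were EPHA4, EPHA5, EPHA6, EPHA7, EPHA10, EPHB2, EFNA3, EFNA5, EFNB1, EFNB3, NRP1, UNC5D, NTNG2, SLIT3, SEMA3D, SEMA4A, SEMA4G and SEMA6A. EPHB1 and SLIT2 moved in opposite directions in the 2 lines. The SEMA6B call in WT was lost on leaving out any of 7 libraries. Fitting WT alone ended the WT call of 8 of the 29 members, EPHA10, EPHB2, NRP2, PLXNC1, SEMA4G, SEMA6B, SLIT2 and SLIT3.

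**Figure D1:**
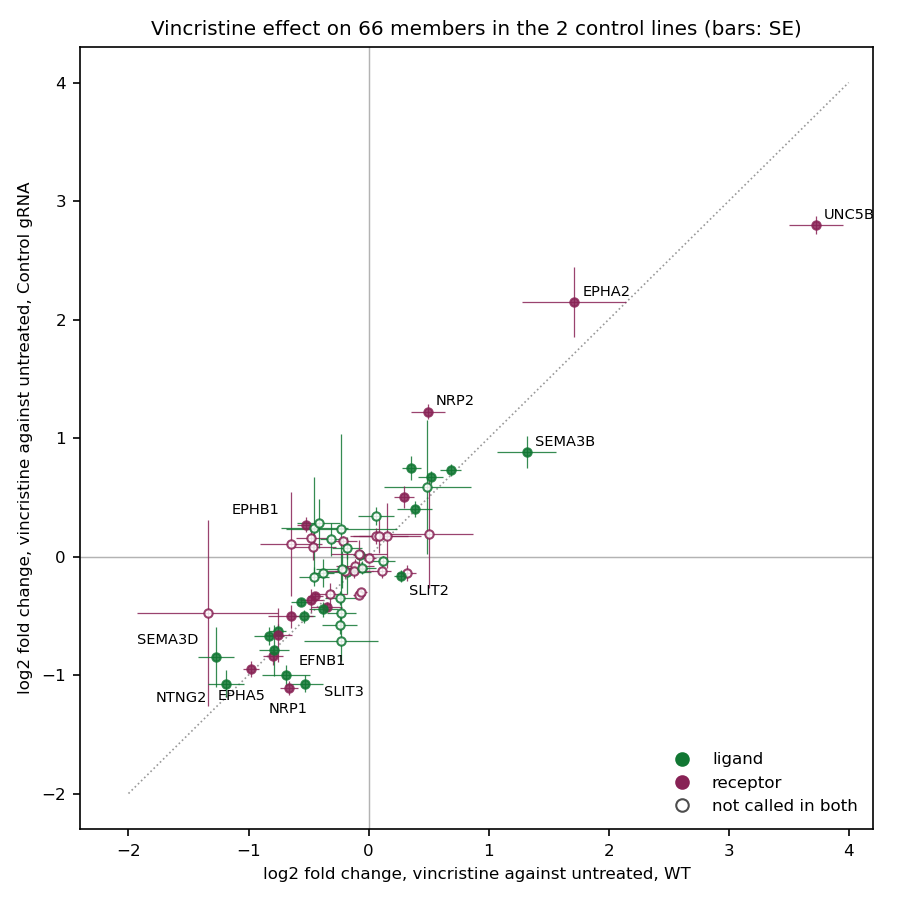
Log2 fold change of each member with vincristine in WT (horizontal axis) and in Control gRNA cells (vertical axis), 1 point per member tested in both experiments, with bars for the SE, green for ligands, purple for receptors and open points for members not called in both. UNC5B lies farthest to the upper right, at 3.73 in WT and 2.79 in Control gRNA cells.

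Markers of other cell types moved in the same comparisons. The summed level of 6 genes of progenitor or dividing cells, most of it NES, ran from 785.0 to 829.2 CPM in untreated WT and from 1063 to 2105 CPM with vincristine, and from 1328 to 1421 and 2564 to 2660 CPM in Control gRNA cells. The sum of 6 peripheral sensory genes, most of it POU4F1, went from 461.0 to 494.8 down to 124.1 to 240.4 CPM in WT, and from 589.6 to 608.7 down to 271.9 to 293.0 CPM in Control gRNA cells. Astrocyte, fibroblast and endothelial markers stayed at or below 6.63, 3.28 and 2.78 CPM in sum in every library. The 4 oligodendrocyte-lineage genes, most of it MBP, summed to 22.1 to 25.3 CPM in untreated and 26.6 to 29.5 CPM in treated WT, and to 12.0 to 17.35 and 22.4 to 25.4 CPM in Control gRNA cells, without overlap in either line. The sum of 9 neuron markers overlapped in WT (8646 to 9150 and 8646 to 9011 CPM) and was lower with vincristine in Control gRNA cells (9192 to 9595 and 7641 to 8167 CPM). The part of these shifts in the members' changes was not tested.

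Among the ligands, NTNG2, a netrin-G that is tethered to the membrane and binds a partner on other neurons, fell in both control lines. It stood at 12.7, 12.5, 12.3 and 12.5 CPM in the untreated WT libraries and at 6.08, 6.75, 5.56 and 3.34 CPM with vincristine. The groups did not overlap, and replicate 4 was the lowest. The log2 fold change was -1.19 ± 0.15 (SE; edgeR, adjusted p = 8.19e-08), and -1.03 without that library. Among Control gRNA libraries NTNG2 went from 31.2, 32.0, 29.2, 28.5 and 27.0 CPM to 13.9, 15.6, 13.7, 14.7 and 12.2 CPM, again without overlap, a change of -1.07 ± 0.12 (edgeR, adjusted p = 9.96e-10). NTNG2 and UNC5B were the only members with a fold change of at least 2 (1 on the log2 scale) in the same direction in both lines, among members with a mean log2 CPM of at least 1.

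The secreted semaphorin SEMA3B rose and its relative SEMA3D fell. SEMA3B stood at 1.82, 2.98, 1.26 and 2.98 CPM in untreated WT and at 5.77, 5.84, 6.95 and 3.23 CPM with vincristine. Replicate 4 lay closest to the untreated libraries, and the groups were apart by a small margin (1.32 ± 0.24; edgeR, adjusted p = 5.22e-05, and 1.49 without replicate 4). In Control gRNA cells its levels were 5.00, 2.59, 4.62, 4.33 and 3.82 CPM untreated and 6.72, 7.86, 7.71, 8.07 and 7.33 CPM treated (0.88 ± 0.13; adjusted p = 4.79e-07). SEMA3D went from 11.8, 8.48, 9.06 and 9.74 to 3.55, 4.68, 3.04 and 4.96 CPM in WT, with every treated library below every untreated one (-1.27 ± 0.15; edgeR, adjusted p = 1.25e-08). Among Control gRNA libraries it was low, at 2.64, 2.12, 3.57, 1.73 and 3.30 CPM untreated and 1.33, 1.80, 1.83, 0.922 and 1.59 CPM treated, and the groups overlapped (-0.85 ± 0.25; adjusted p = 0.00618).

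Of the ephrins, which are ligands held on the cell surface, only EFNB2 rose. Its 4 untreated WT libraries read 128, 149, 144 and 140 CPM and the treated ones 257, 246, 233 and 164 CPM, all above them (0.68 ± 0.09; edgeR, adjusted p = 1.09e-07, and 0.80 without replicate 4). In Control gRNA cells EFNB2 went from 106 to 118 CPM to 170 to 195 CPM (0.73 ± 0.05; adjusted p = 1.63e-16). EFNA3, EFNA5, EFNB1 and EFNB3 fell in both lines, by 0.83, 0.76, 0.69 and 0.54 on the log2 scale in WT and by 0.67, 0.63, 1.00 and 0.51 in Control gRNA cells. SLIT3, a ligand of Robo receptors, fell by 0.53 in WT and by 1.07 in Control gRNA cells. SLIT2 rose by 0.27 ± 0.06 in WT (edgeR, adjusted p = 0.00107, and 0.0924 when WT was fitted alone) and fell by 0.16 ± 0.05 in Control gRNA cells (adjusted p = 0.00838). The netrin NTN1 was close to 1 CPM in WT and not called, and fell by 0.71 ± 0.17 in Control gRNA cells (adjusted p = 0.000786).

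Among the receptors, UNC5B had the largest change of any member in both control lines. UNC5B (ENSG00000107731.12, GRCh38 chromosome 10, 71212570 to 71302864, plus strand) encodes a netrin receptor of the UNC5 family, members of which mediate repulsion and can signal cell death. It stood at 6.12, 4.85, 4.92 and 5.17 CPM in untreated WT and at 92.4, 74.2, 69.2 and 42.0 CPM with vincristine, so that the lowest treated library exceeded the highest untreated one several times over. Its log2 fold change was 3.73 ± 0.22, or 13.2-fold (edgeR, adjusted p = 4.66e-14), and 3.90 without replicate 4. Among Control gRNA libraries it went from 18.2, 19.4, 17.2, 19.2 and 15.9 CPM to 119.8, 137.1, 121.4, 125.1 and 118.8 CPM, a log2 fold change of 2.79 ± 0.08 (6.94-fold; adjusted p = 1.11e-28). The transcript UNC5B-AS1 overlaps the gene on the other strand. It was at 1.45 and 1.57 CPM on average in vincristine-treated WT and Control gRNA cells, at or below 0.118 CPM in the other groups, and never more than 6.45% of the sum of both genes. The files do not state whether counting used the strand, so reads of overlapping antisense genes could not be told apart. The other UNC5 receptors did not share the rise: UNC5D fell by 0.48 in WT and by 0.37 in Control gRNA cells, and neither UNC5A nor UNC5C was called.

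**Figure D2:**
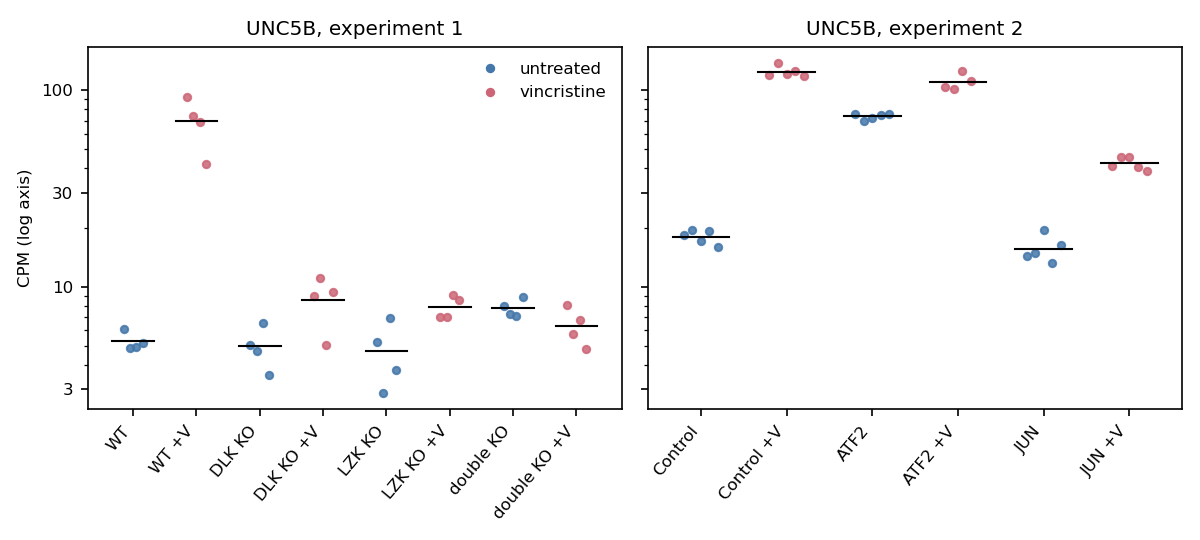
UNC5B level in CPM (log axis) in each library, for the 14 groups of both experiments, with points for libraries and bars for group means. Vincristine-treated WT libraries lie between 42.0 and 92.4 CPM and treated Control gRNA libraries between 118.8 and 137.1 CPM, while treated double KO libraries lie between 4.79 and 8.06 CPM.

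The neuropilins, which bind secreted semaphorins, moved in opposite directions. NRP1 fell from 65.5, 58.1, 66.7 and 67.6 CPM to 39.4, 43.9, 41.8 and 37.6 CPM in WT, without overlap (-0.66 ± 0.08; edgeR, adjusted p = 7.65e-09). In Control gRNA cells it went from 62.9, 69.5, 64.3, 68.1 and 72.5 CPM to 30.4, 31.4, 31.2, 31.8 and 31.7 CPM and the treated libraries all lay far below the untreated ones (-1.11 ± 0.06; adjusted p = 6.84e-21). NRP2 rose in Control gRNA cells from 26.4, 26.1, 27.1, 27.1 and 29.5 CPM to 65.8, 69.2, 63.9, 62.6 and 56.6 CPM, again without overlap (1.22 ± 0.06; adjusted p = 2.58e-21). In WT it stood at 11.9, 14.0, 11.7 and 11.5 CPM untreated and at 18.6, 17.8, 21.0 and 11.3 CPM treated, where replicate 4 lay below every untreated library. There the log2 fold change was 0.49 ± 0.14 (edgeR, adjusted p = 0.00721), with an adjusted p of 0.0563 without vincristine replicate 3. Without vincristine replicate 4 the NRP2 change was 0.64 ± 0.12 (adjusted p = 6.9e-05).

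Eph receptors, the receptors for ephrins, were mostly lower. EPHA5 fell by 0.98 ± 0.07 in WT (edgeR, adjusted p = 2.22e-14), from 64.2 to 68.5 CPM down to 30.9 to 35.8 CPM, and by 0.95 ± 0.07 in Control gRNA cells, from 42.9 to 50.4 CPM down to 22.6 to 25.0 CPM. EPHA7 fell by 0.80 and 0.84 in the respective lines, and EPHA6 by 0.75 and 0.66. The EPHA6 call in Control gRNA cells rests on levels of 0.497 to 1.78 CPM and was lost without untreated replicate 3, untreated replicate 5 or vincristine replicate 5 (adjusted p = 0.0914, 0.0841 and 0.0749). EPHA4, the most abundant of them, fell less, from 205, 211, 216 and 191 CPM to 136, 156, 159 and 154 CPM in WT (-0.44 ± 0.06; edgeR, adjusted p = 5.7e-07). Among Control gRNA libraries it went from 212, 205, 210, 218 and 226 CPM to 172, 165, 172, 162 and 181 CPM (-0.33 ± 0.03; adjusted p = 8.36e-11), and the groups did not overlap in either line. EPHB1 fell by 0.52 ± 0.08 in WT (adjusted p = 1.15e-06) and rose by 0.27 ± 0.06 in Control gRNA cells (adjusted p = 0.000473).

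**Figure D3:**
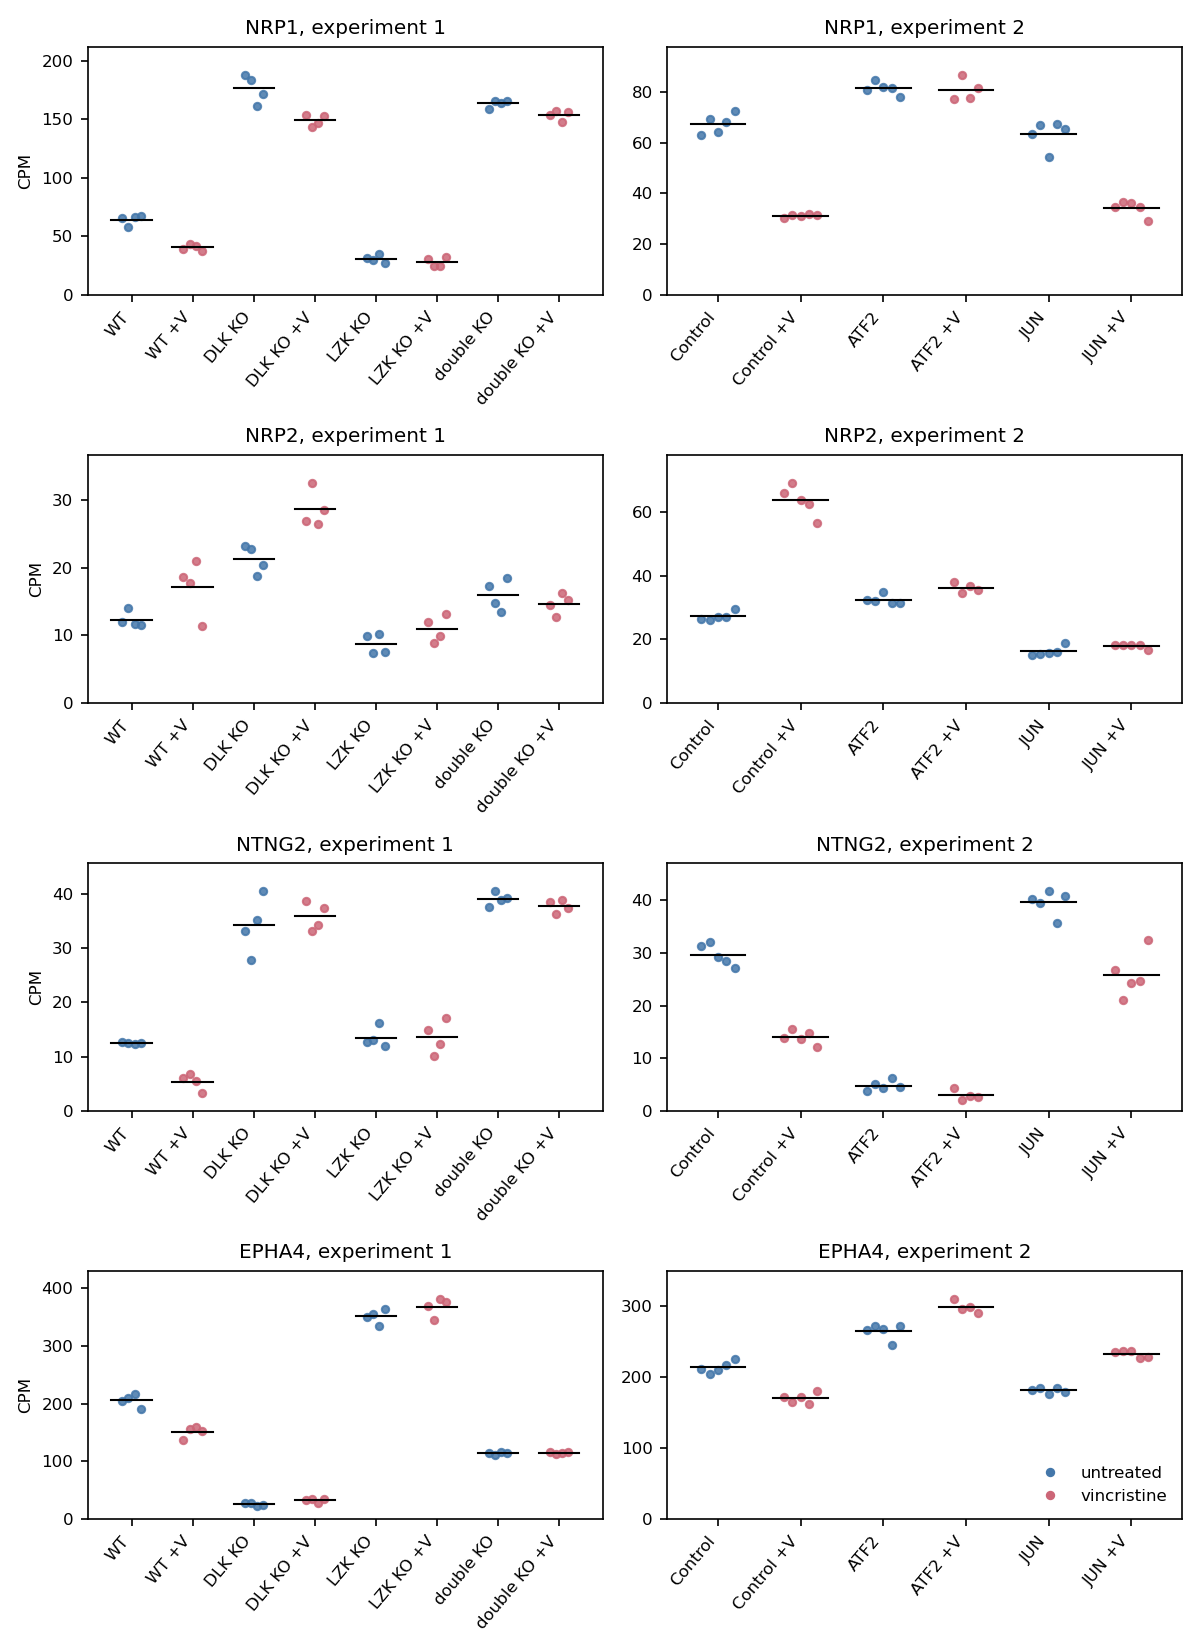
Levels in CPM (linear axis from 0) of NRP1, NRP2, NTNG2 and EPHA4 in every library, by line and treatment, with experiment 1 and experiment 2 in separate panels. In Control gRNA cells NRP1 drops to between 30.4 and 31.8 CPM and NRP2 climbs to between 56.6 and 69.2 CPM, while treated ATF2 gRNA libraries lie between 77.2 and 86.8 CPM for NRP1 and between 34.6 and 38.1 CPM for NRP2.

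EPHA2, by contrast, was a rare transcript that rose. It read 0.287, 0.373, 0.281 and 0.795 CPM in untreated WT and 1.72, 2.16, 1.04 and 0.647 CPM with vincristine, where replicate 4 overlapped the untreated range (1.71 ± 0.43; edgeR, adjusted p = 0.00223, and 1.93 ± 0.43 without that library). Among Control gRNA libraries it went from 0.914, 1.46, 1.85, 1.23 and 1.54 CPM to 6.52, 6.51, 6.48, 6.76 and 4.89 CPM without overlap (2.15 ± 0.29; adjusted p = 5.31e-08). EPHA2 was below the level set for giving statistics, and is described because its promoter holds a motif. The plexin PLXNC1, a receptor for SEMA7A, rose by 0.30 ± 0.08 in WT (adjusted p = 0.0058) and by 0.50 ± 0.09 in Control gRNA cells (adjusted p = 1.12e-05).

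Because JUN and ATF2 are DNA-binding factors, the members' promoters were searched for their sites. RefSeq promoters of GRCh38.p14, 250 bases before to 50 after the start, were matched for 60 of the 71 members, and 47 of these starts lay within 1000 bases of the GENCODE 29 gene start. UNC5B, NTNG2, NRP1 and NTN1 were not among them. The AP-1 site TGANTCA was found, on either strand, in 1 member (PLXNC1), against 7.76% of 27305 promoters of that length, but the PLXNC1 start in RefSeq lies 113896 bases inside the GENCODE gene. The site TGACGTNA, which includes the site TGACGTCA bound by ATF2 and JUN dimers, was found in 2 members (EPHA2 and SEMA4C, 3.33%), both as TGACGTCA, against 3.18% of all promoters for TGACGTNA and 1.98% for TGACGTCA. The 250 bases before the start are shown for these 2 members, with the match in capitals, and for NRP2, which rose in both control lines and holds neither site. They were chosen after their values were seen.
EPHA2, chr1:16156070-16156319, minus strand: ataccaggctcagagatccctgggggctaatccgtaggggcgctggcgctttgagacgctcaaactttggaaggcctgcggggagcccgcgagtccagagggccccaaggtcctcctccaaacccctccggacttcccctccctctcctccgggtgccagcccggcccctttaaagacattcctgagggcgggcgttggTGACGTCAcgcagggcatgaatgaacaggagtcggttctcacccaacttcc
SEMA4C, chr2:96870081-96870330, minus strand: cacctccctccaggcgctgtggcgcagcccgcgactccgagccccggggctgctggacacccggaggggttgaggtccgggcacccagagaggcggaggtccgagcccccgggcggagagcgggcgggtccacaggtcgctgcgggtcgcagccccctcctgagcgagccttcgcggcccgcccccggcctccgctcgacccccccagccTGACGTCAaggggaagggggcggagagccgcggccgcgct
NRP2, chr2:205682251-205682500, plus strand: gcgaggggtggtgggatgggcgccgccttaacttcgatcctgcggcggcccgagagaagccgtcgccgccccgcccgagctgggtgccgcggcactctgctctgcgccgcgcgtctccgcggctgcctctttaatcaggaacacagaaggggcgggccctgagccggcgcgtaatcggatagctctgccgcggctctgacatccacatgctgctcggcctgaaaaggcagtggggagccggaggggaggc
In EPHA2 the match began 51 bases before the start and in SEMA4C 40 bases before it. SEMA4C, a membrane semaphorin, was not called for vincristine in WT (-0.05 ± 0.12) or in Control gRNA cells (-0.09 ± 0.05), unlike EPHA2. A match is a description of the letters only.

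In the knockout lines fewer members passed the test for vincristine. In DLK KO cells 12 of 66 did, 8 higher and 4 lower, against 6.53% of all genes (4.24% higher and 2.28% lower), and this count was unstable: it fell to 2 without untreated replicate 1, to 3 without untreated replicate 2 or vincristine replicate 2, and to 4 without vincristine replicate 1, and with offsets for GC content it was 9 higher and none lower. In LZK KO cells 5 passed, 1 higher and 4 lower, against 3.88% of all genes (2.27% higher and 1.61% lower). In double KO cells 0 passed, against 0.0658% of all genes (0.00548% higher and 0.0603% lower), with 6 members at an unadjusted p under 0.05. DESeq2 and limma voom also called 0 there, while a fit of only the double KO libraries called 11, all lower. The share of all genes called in that fit is not given here, so the 11 cannot be read as particular to the members.

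EFNB2 rose in both single knockouts. In DLK KO cells it went from 79.2, 85.3, 90.2 and 87.8 CPM to 167, 179, 148 and 156 CPM (0.92 ± 0.09; edgeR, adjusted p = 2.83e-09), and in LZK KO cells from 196, 174, 219 and 194 CPM to 269, 265, 282 and 304 CPM (0.52 ± 0.09; adjusted p = 0.000172). In double KO cells it read 117 to 126 CPM untreated and 111 to 122 CPM treated (-0.04 ± 0.09; adjusted p = 0.945). The treated libraries were thus above all untreated ones in both single knockouts, and not in the double KO. The further higher members of DLK KO cells included EPHB6 (0.73 ± 0.19), an Eph receptor without kinase activity, the membrane semaphorins SEMA6B (0.51 ± 0.14) and SEMA4C (0.43 ± 0.12), and NRP2 (0.43 ± 0.13). Each of these 4 calls was lost on leaving out any of 4 to 8 libraries, EPHB6 of 4, SEMA6B of 6, SEMA4C of 7 and NRP2 of 8. EPHA4 rose in DLK KO cells by 0.35 ± 0.07 (adjusted p = 0.00169), from a level of 23.4 to 28.2 CPM. In LZK KO cells the lower members were EPHA6 (-0.71 ± 0.14), SEMA3E (-0.55 ± 0.15), EPHA7 (-0.42 ± 0.08) and EPHA5 (-0.36 ± 0.07), and the SEMA3E call was lost without untreated replicate 2, vincristine replicate 2 or vincristine replicate 4 (adjusted p from 0.0781 to 0.278). Fitting LZK KO alone also ended the calls of SEMA3E, EPHA7 (adjusted p = 0.0558) and EPHA5 (adjusted p = 0.14), and limma voom ended those of SEMA3E and EPHA5 (0.0733 for EPHA5).

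In the fit of all groups of its experiment, UNC5B did not pass the test in any knockout line. Its outcome there in the alternative settings is not given here. It read 5.07, 4.69, 6.54 and 3.55 CPM untreated and 8.93, 11.0, 5.07 and 9.34 CPM treated in DLK KO cells (0.78 ± 0.26; edgeR, adjusted p = 0.0665), and 5.23, 2.89, 6.94 and 3.77 against 6.98, 7.01, 9.11 and 8.59 CPM in LZK KO cells (0.72 ± 0.28; adjusted p = 0.166). In double KO cells it read 8.01, 7.22, 7.05 and 8.85 against 8.06, 5.74, 6.77 and 4.79 CPM (-0.30 ± 0.25; adjusted p = 0.825). Groups overlapped in DLK KO and double KO cells, and in LZK KO cells the lowest treated library lay just above the highest untreated one.

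The difference in the vincristine effect between a knockout and WT was tested directly, and these tests share the WT libraries. For DLK KO, 27 members differed, 24 with a higher and 3 with a lower effect than in WT, against 19.4% of all genes (9.95% higher and 9.41% lower), and with GC offsets 28 did, 23 higher and 5 lower. The trend of log2 CPM with GC content moved with treatment in DLK KO cells, from -0.207 to -0.001 in untreated libraries to 0.118 to 0.295 in treated ones, and its part in this split beyond those offsets was not tested. For LZK KO, 13 differed, 11 higher and 2 lower, against 12.4% (5.88% higher and 6.53% lower), and with GC offsets 20 did, 14 higher and 6 lower. For double KO, 24 differed, 16 higher and 8 lower, against 19.4% (9.21% higher and 10.2% lower). Without WT vincristine replicate 4 these counts were 29, 16 and 28. UNC5B had the largest called difference of all members in each, at -2.95 ± 0.35 for DLK KO (edgeR, adjusted p = 3.52e-07), -3.00 ± 0.36 for LZK KO (adjusted p = 8.18e-07) and -4.03 ± 0.34 for double KO (adjusted p = 2.47e-10).

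NTNG2 and EFNA3, which fell in WT, had a less negative effect in all 3 knockouts. NTNG2 differed by 1.26, 1.20 and 1.14 in DLK KO, LZK KO and double KO cells, and EFNA3 by 0.98, 0.91 and 0.88. NTNG2 in double KO cells read 37.5, 40.6, 38.8 and 39.3 CPM untreated and 38.5, 36.3, 38.9 and 37.4 CPM treated, with overlap. SEMA3D differed by 1.18 ± 0.18 in double KO cells (edgeR, adjusted p = 4.35e-06), where it read 72.4, 74.4, 87.2 and 79.1 CPM untreated and 75.0, 79.2, 71.5 and 68.9 CPM treated, and EPHA5 differed by 0.93 and EPHA7 by 0.80. The members with a lower effect in double KO cells than in WT were led by UNC5B, followed by SEMA3B at -1.14 ± 0.36 (adjusted p = 0.0234), EFNB2 at -0.72, SEMA4F at -0.62 and NRP2 at -0.62 ± 0.20 (adjusted p = 0.0249). SEMA3B read 2.60, 1.76, 2.60 and 2.05 CPM untreated and 1.44, 2.69, 3.56 and 2.25 CPM treated in double KO cells, and its difference lost its call without WT untreated replicate 3, WT vincristine replicate 3, double KO untreated replicate 3 or double KO vincristine replicate 1 (adjusted p from 0.0546 to 0.0776). The NRP2 difference was likewise lost on leaving out any 1 of 5 libraries (adjusted p from 0.0508 to 0.0838).

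Between double KO and DLK KO cells 2 members differed in their vincristine effect, both lower, against 1.14% of all genes (0.126% higher and 1.01% lower). DESeq2 called 5, limma voom 27 and a fit of only the groups compared 29. Shares of all genes called in those settings are not given here, so these counts cannot be read as particular to the members. The 2 members of the main fit were EFNB2 (-0.96 ± 0.13; edgeR, adjusted p = 7.61e-06) and EPHB6 (-1.12 ± 0.24; adjusted p = 0.01). EPHB6 did not pass once untreated replicate 1 of DLK KO was left out (adjusted p = 0.0582). EPHB6 stood at 2.58, 3.09, 3.71 and 4.84 CPM untreated and 6.21, 6.40, 5.68 and 5.15 CPM treated in DLK KO cells, without overlap. EPHB6 in double KO cells read 13.5, 12.8, 11.1 and 10.9 CPM untreated and 9.94, 8.64, 10.2 and 7.88 CPM treated. Summed progenitor markers went from 238.9 to 305.3 up to 538.0 to 649.3 CPM in DLK KO cells, from 597.4 to 753.6 up to 1111 to 1313 CPM in LZK KO cells, and from 309.2 to 320.7 to 310.5 to 329.1 CPM in double KO cells, and their part in these differences was not tested.

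**Figure D4:**
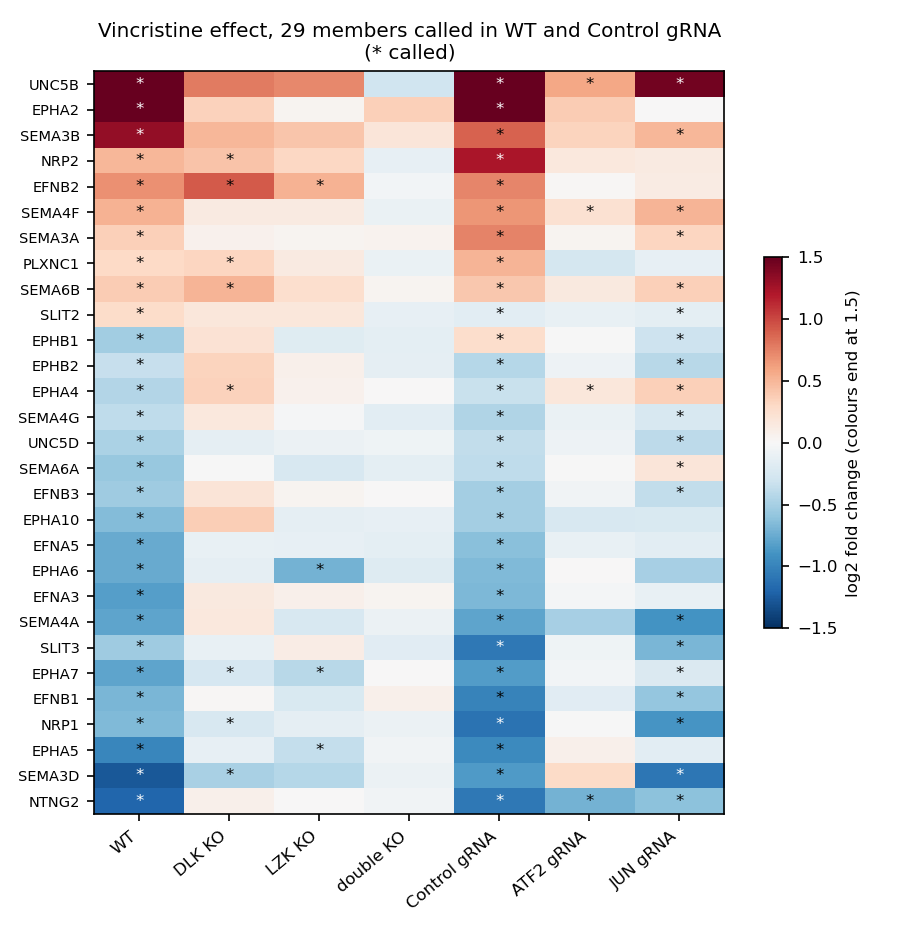
Log2 fold change with vincristine of the 29 members called in both control lines (vertical), in the 7 lines (horizontal), as colours that end at 1.5 in either direction, with a star on called changes. The double KO column holds no called change, while EFNB2 is higher in WT, DLK KO, LZK KO and Control gRNA cells.

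In experiment 2 more members were called under the JUN guide than under the ATF2 guide. In JUN gRNA cells 31 of 70 members changed with vincristine, 11 higher and 20 lower, against 15.9% of all genes (7.58% higher and 8.31% lower). In ATF2 gRNA cells 7 did, 4 higher and 3 lower, against 6.1% of all genes (1.88% higher and 4.22% lower), so that the members' share, 10.0%, was near the background. Tested directly, 29 members differed between ATF2 gRNA and Control gRNA cells (17 with a higher and 12 with a lower effect, against 20.6% of all genes, 10.2% higher and 10.4% lower), and 26 differed between JUN gRNA and Control gRNA cells (16 higher and 10 lower, against 15.8%, 8.71% higher and 7.06% lower). These tests share the Control gRNA libraries. Between ATF2 gRNA and JUN gRNA cells 11 members differed, 7 higher and 4 lower, against 2.83% of all genes (0.91% higher and 1.92% lower).

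UNC5B still rose under both guides, from different starting points. In JUN gRNA cells it went from 14.3, 14.8, 19.4, 13.2 and 16.3 CPM to 41.0, 45.8, 46.0, 40.9 and 38.7 CPM (1.44 ± 0.07; edgeR, adjusted p = 1.22e-18). In ATF2 gRNA cells it was high already without the drug, at 75.9, 69.9, 72.6, 74.7 and 75.4 CPM, and reached 104.2, 101.2, 125.0 and 111.1 CPM (0.58 ± 0.07; adjusted p = 5.31e-07). Groups did not overlap in either line. The effect was smaller than in Control gRNA cells by 1.35 ± 0.10 under the JUN guide (adjusted p = 2.52e-13) and by 2.21 ± 0.10 under the ATF2 guide (adjusted p = 7.41e-20), and it differed between the guides by -0.86 ± 0.10 (adjusted p = 2.39e-07). Without the drug, UNC5B was 4.11-fold higher in ATF2 gRNA than in Control gRNA cells (2.04 ± 0.07; adjusted p = 1.35e-24).

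The neuropilin NRP1 differed between the guides. It went from 63.2, 67.0, 54.3, 67.5 and 65.5 CPM to 34.8, 36.5, 36.2, 34.8 and 29.0 CPM in JUN gRNA cells, without overlap (-0.89 ± 0.06; edgeR, adjusted p = 9.96e-17). In ATF2 gRNA cells it read 80.8, 84.8, 82.0, 81.6 and 78.0 CPM untreated and 77.2, 86.8, 77.7 and 81.6 CPM treated (-0.01 ± 0.06; adjusted p = 0.955), within the same range. The difference from Control gRNA cells was 1.10 ± 0.08 under the ATF2 guide (adjusted p = 8.78e-15), and that between the guides was 0.88 ± 0.08 (adjusted p = 1.26e-10). NRP2 was not called under either guide. It read 32.3, 32.1, 35.0, 31.4 and 31.5 CPM untreated and 38.1, 34.6, 36.8 and 35.4 CPM treated in ATF2 gRNA cells (0.16 ± 0.06; adjusted p = 0.161), and 15.1, 15.4, 15.7, 16.1 and 19.0 against 18.1, 18.3, 18.1, 18.1 and 16.6 CPM in JUN gRNA cells (0.14 ± 0.06; adjusted p = 0.145). Its effect was smaller than in Control gRNA cells by 1.07 ± 0.09 and by 1.08 ± 0.09 (adjusted p = 3.64e-13 and 2.19e-13).

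Several other members had a different vincristine effect under the ATF2 guide. EPHA5 read 34.9 to 46.9 CPM untreated and 39.9 to 46.4 CPM treated in ATF2 gRNA cells, a difference from Control gRNA cells of 1.03 ± 0.10 (edgeR, adjusted p = 3.27e-11), and for SLIT3 that difference was 1.01 ± 0.10 (adjusted p = 3.64e-11). SEMA3D differed by 1.13 ± 0.36 (adjusted p = 0.0186, and 0.145 without ATF2 gRNA vincristine replicate 2) and EFNB1 by 0.83. On the lower side PLXNC1 differed by -0.77, SEMA3A by -0.71 and EFNB2 by -0.71, and EFNB2 read 93.5 to 102 CPM untreated and 87.8 to 106 CPM treated. NTNG2 still fell under both guides, by 0.71 ± 0.15 in ATF2 gRNA cells (adjusted p = 0.00243, and 0.0906 when that line was fitted alone) and by 0.62 ± 0.11 in JUN gRNA cells (adjusted p = 8.34e-05), though in ATF2 gRNA cells its untreated libraries stood at 3.79, 5.11, 4.41, 6.21 and 4.50 CPM and overlapped the treated ones at 4.34, 2.06, 2.88 and 2.56 CPM.

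EPHA4, which fell in Control gRNA cells, rose under both guides. In JUN gRNA cells it rose from 182, 185, 176, 185 and 180 CPM to 235, 237, 238, 228 and 229 CPM (0.36 ± 0.03; edgeR, adjusted p = 3.68e-11), and in ATF2 gRNA cells from 267, 272, 269, 246 and 272 CPM to 311, 296, 300 and 290 CPM (0.18 ± 0.04; adjusted p = 0.00142), without overlap in either. These effects differed from the fall in Control gRNA cells by 0.69 ± 0.05 and 0.51 ± 0.05 (adjusted p = 3.88e-15 and 7.13e-11). Under the JUN guide, EPHA5, EPHA7 and SEMA6A also differed upward from Control gRNA cells, by 0.79, 0.62 and 0.57, and NTN1 by 0.74, a call lost on leaving out any of 6 libraries. SEMA3E differed by -0.93, PLXNA4 by -0.69 and PLXNC1 by -0.63. EPHA2 read 0.686 to 1.70 CPM untreated and 0.784 to 2.06 CPM treated in ATF2 gRNA cells, and 0.757 to 1.55 and 0.378 to 2.00 CPM in JUN gRNA cells. Its effect was lower than in Control gRNA cells by 1.77 ± 0.43 and 2.14 ± 0.41 (adjusted p = 0.00177 and 0.000143). Summed progenitor markers went from 765.5 to 840.0 to 729.6 to 841.4 CPM in ATF2 gRNA cells and from 966.8 to 1089 up to 1670 to 1776 CPM in JUN gRNA cells, and their part was not tested.

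Without the drug, the lines differed from their controls in many members. In the knockouts 37 (DLK KO), 38 (LZK KO) and 42 (double KO) of 66 members differed from WT, against 34.5% (16.5% higher and 17.9% lower), 33.9% (17.1% and 16.8%) and 45.7% (23.6% and 22.1%) of all genes, and these comparisons share the untreated WT libraries. The directions were 18 higher and 19 lower in DLK KO, 27 and 11 in LZK KO, and 35 and 7 in double KO cells, where the member median was 0.472 against 0.014 for all genes. In double KO cells 21 of 32 receptors were higher and 2 lower, among them 9 Eph receptors and 6 plexins higher. In ATF2 gRNA cells 49 of 70 members differed from Control gRNA, 24 higher and 25 lower, against 39.9% of all genes (19.7% higher and 20.2% lower), and in JUN gRNA cells 24 did, 13 higher and 11 lower, against 11.2% (5.78% and 5.46%). All 4 UNC5 receptors were higher in ATF2 gRNA cells, though the UNC5D call was lost in 9 of 18 alternatives, and 5 of 8 ephrins were lower.

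**Figure D5:**
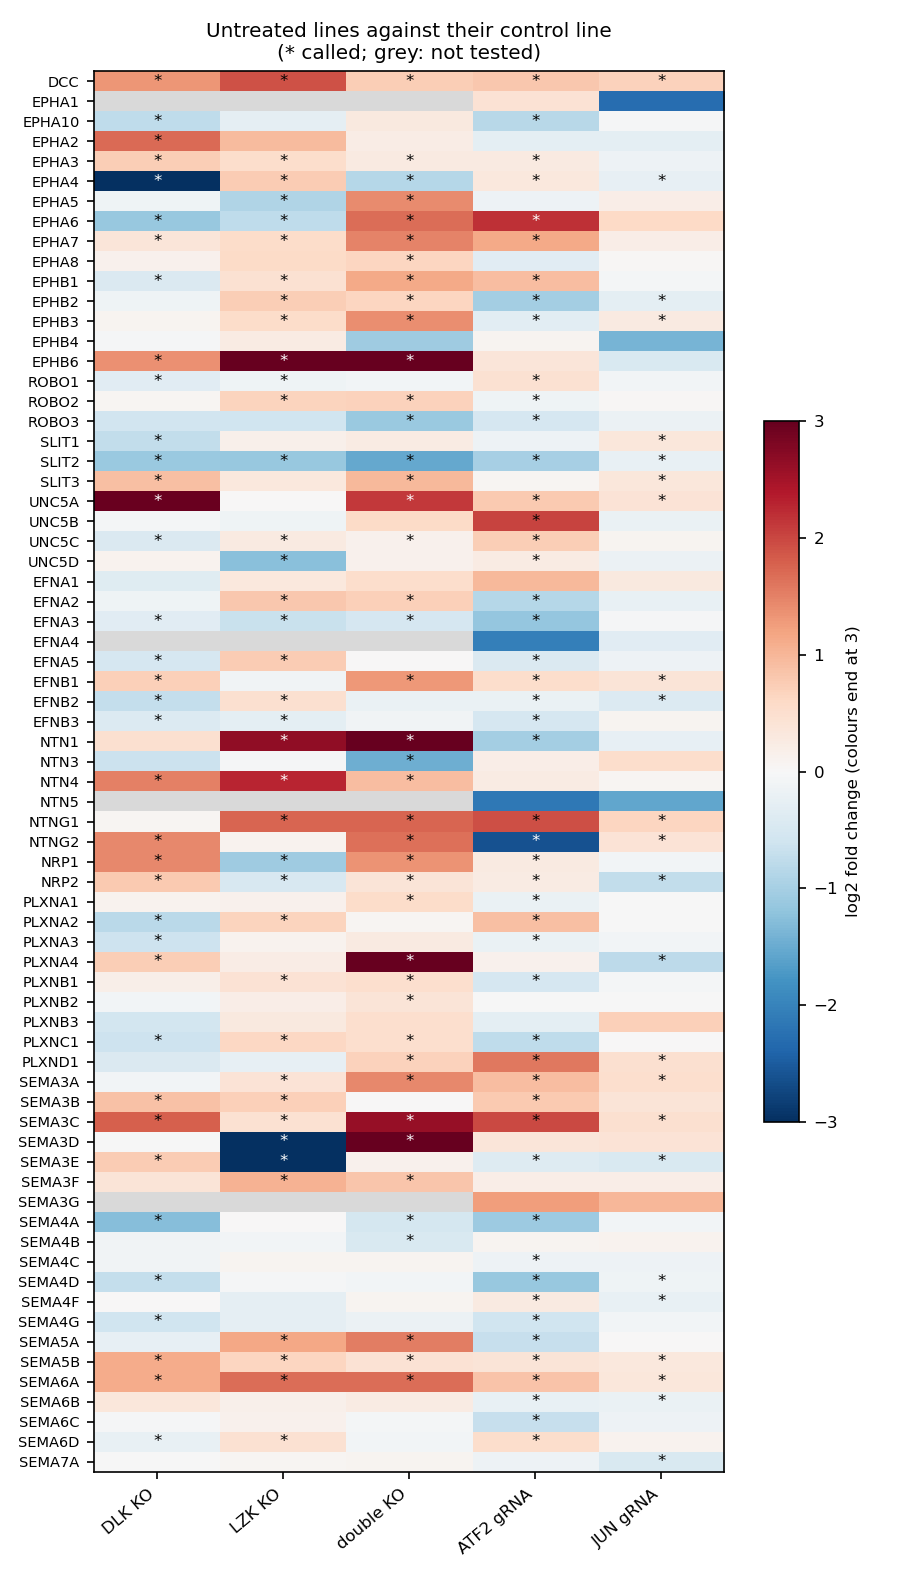
Log2 difference of every tested member (vertical) between each untreated line and its control (horizontal), as colours that end at 3 in either direction, with a star on called differences and grey for members not tested. The double KO column is mostly higher, with NTN1 at 4.06 and PLXNA4 at 3.73 beyond the end of the colours.

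Of the ligands, NTN1, which encodes netrin-1, differed most. It read 1.24, 1.30, 1.26 and 1.49 CPM in untreated WT and 19.1, 27.1, 22.1 and 20.0 CPM in double KO cells (4.06 ± 0.19; edgeR, adjusted p = 2.42e-19), with LZK KO between them at 9.67, 6.38, 8.05 and 9.42 CPM (2.65 ± 0.22; adjusted p = 1.92e-12) and DLK KO cells at 1.34, 1.40, 2.65 and 1.94 CPM. An antisense transcript that overlaps NTN1 held up to 28.6% of the counts of both, and was at or below 1.30 CPM in every library of experiment 1. SEMA3D was 3.00 ± 0.11 higher in double KO and 3.13 lower in LZK KO cells, at 1.14, 1.56, 0.925 and 0.824 CPM (adjusted p = 2.08e-22 and 1.34e-15). SEMA3E, which acts on PLXND1, was also lower in LZK KO cells, by 3.10 ± 0.11 (adjusted p = 1.33e-22), at 5.83 to 9.86 CPM against 53.8 to 65.8 CPM. SEMA3C was higher in all 5 lines, by 1.78 in DLK KO, 0.46 in LZK KO, 2.60 in double KO, 1.98 in ATF2 gRNA and 0.48 in JUN gRNA cells.

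SLIT2, the most abundant ligand per kilobase in WT, was lower in all 5 lines, by 1.12, 1.14 and 1.54 in DLK KO, LZK KO and double KO cells and by 0.99 and 0.23 in ATF2 gRNA and JUN gRNA cells. It read 409 to 480 CPM in untreated WT and 150 to 152 CPM in double KO cells. NTNG2 was higher by 1.45 in DLK KO cells, where it read 27.8 to 40.4 CPM, and by 1.64 in double KO cells, and lower by 2.61 ± 0.13 in ATF2 gRNA cells (edgeR, adjusted p = 1.75e-19). In 4 of the 5 lines the related NTNG1 was higher, by 1.74 in LZK KO, 1.75 in double KO, 1.92 in ATF2 gRNA and 0.64 in JUN gRNA cells.

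Of the receptors, EPHA4 had the largest called difference in DLK KO cells and PLXNA4 in double KO cells. EPHA4 was at 27.1, 28.2, 23.4 and 24.0 CPM in DLK KO cells, where WT cells had 191 to 216 CPM (-3.00 ± 0.07; edgeR, adjusted p = 1.26e-27), at 350, 355, 335 and 365 CPM in LZK KO cells (0.77 ± 0.06; adjusted p = 1.05e-12) and at 115, 111, 116 and 115 CPM in double KO cells (-0.85 ± 0.06; adjusted p = 5.87e-14). The 20 tested genes nearest to EPHA4, 10 on each side over 4.68 Mb of chromosome 2, were also lower in DLK KO cells: 19 of the 20 were called lower, with a median of -0.992. PLXNA4, a plexin that acts with neuropilins, read 32.4, 33.2, 32.2 and 39.3 CPM in WT and 438, 485, 444 and 450 CPM in double KO cells (3.73 ± 0.13; adjusted p = 1.64e-21), and in JUN gRNA cells it was at 16.5, 15.7, 15.8, 15.7 and 17.0 CPM against 31.5, 24.3, 24.6, 29.1 and 29.3 CPM in Control gRNA cells (-0.78 ± 0.08; adjusted p = 4.82e-10).

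UNC5A, a netrin receptor of the same family as UNC5B, read 1.43, 1.49, 1.76 and 2.19 CPM in WT, 12.2, 13.2, 14.6 and 13.9 CPM in DLK KO cells (2.96 ± 0.17; edgeR, adjusted p = 9.32e-17) and 7.49, 6.50, 7.97 and 8.01 CPM in double KO cells (2.12 ± 0.18; adjusted p = 2.09e-12). HK3 overlaps UNC5A on the other strand and held up to 22.2% of the counts of both, and was at or below 0.572 CPM in every library of experiment 1. EPHB6 was higher in all 3 knockouts, at 11.0, 14.1, 17.1 and 12.2 CPM in LZK KO cells (3.32 ± 0.20; adjusted p = 5.87e-16), by 3.14 in double KO and by 1.38 in DLK KO cells, against 0.839 to 1.76 CPM in WT. DCC was higher in all 5 lines, by 1.32, 1.92 and 0.74 in DLK KO, LZK KO and double KO cells and by 0.82 and 0.68 in ATF2 gRNA and JUN gRNA cells.

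EPHA6 was at 0.789, 0.714, 1.78, 1.49 and 1.74 CPM in Control gRNA cells and at 4.13, 6.90, 6.50, 5.81 and 6.65 CPM in ATF2 gRNA cells, without overlap (2.18 ± 0.22; edgeR, adjusted p = 1.32e-11). NRP2 was lower in JUN gRNA cells by 0.75 ± 0.06 (adjusted p = 9.26e-13), as its levels above show. NRP1 was higher in DLK KO cells, at 188, 184, 161 and 172 CPM (1.45), and in double KO cells, at 159 to 166 CPM (1.34), and lower in LZK KO cells, at 31.4, 29.7, 34.9 and 27.7 CPM (-1.06).

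Some of these members lie among genes that shifted with them or against them. The median of the 20 nearest tested genes was beyond 0.5 in either direction for 2 called members in DLK KO cells (EPHA4 and NRP2), 3 in double KO cells (DCC, NTN3 and ROBO3), 3 in ATF2 gRNA cells (SEMA3A, SEMA3E and SEMA6D) and none in LZK KO or JUN gRNA cells. For NRP2 in DLK KO cells and DCC in double KO cells the neighbours were lower, with medians of -0.860 and -0.806, while the member was higher. The cause of such regional shifts was not tested.

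Markers of other cell types also differed between the untreated lines. PRPH and ISL1, markers of peripheral neurons, stood at 112.2 and 66.3 CPM in double KO cells against 2.84 and 1.21 CPM in WT, and ISL1 at 20.5 CPM in DLK KO cells. The whole list of 6 did not rise: it summed to 461.0 to 494.8 CPM in WT, 438.4 to 466.4 CPM in double KO and 280.2 to 327.1 CPM in DLK KO cells, and POU4F1 stood at 434.9 CPM in WT, 200.9 CPM in double KO and 192.7 CPM in DLK KO cells. The sum was lower still in LZK KO cells, at 149.8 to 188.8 CPM. In experiment 2 it was 589.6 to 608.7 CPM in Control gRNA, 330.8 to 351.6 CPM in ATF2 gRNA and 527.6 to 555.7 CPM in JUN gRNA cells. The 5 pluripotency genes summed to 2.81 to 3.35 CPM in WT and 52.9 to 59.1 CPM in double KO cells. In experiment 2 the sum was 33.8 to 40.2 CPM in ATF2 gRNA cells, against 9.58 to 13.5 CPM in Control gRNA cells. Most of it was LIN28A and DPPA4, with NANOG and TDGF1 at or near 0. The part of these differences in the members' levels was not tested.

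The genes through which the receptors act were followed as a list of 70, made of collapsin response mediators, PAK, Src-family and cofilin-pathway kinases and further signalling genes. Vincristine changed 25 of 68 tested in WT, 8 higher and 17 lower, and 43 of 70 in Control gRNA cells, 14 higher and 29 lower, shares to be read against the 30.2% and 35.3% of all genes given above. Highest in both lines were PAK6 (0.92 ± 0.34 in WT and 1.74 ± 0.64 in Control gRNA cells), ABLIM3 (0.86 ± 0.10 and 1.15 ± 0.08), which binds actin, and PAK3 (0.79 ± 0.07 and 0.87 ± 0.07). Among the lowest was SRGAP1, which acts in Slit and Robo signalling (-0.72 ± 0.06 and -0.83 ± 0.07). DPYSL2, the collapsin response mediator CRMP2, fell by 0.26 ± 0.05 in WT and by 0.59 ± 0.03 in Control gRNA cells (edgeR, adjusted p = 0.000264 and 4.62e-19). In the further lines 8 passed in DLK KO (7 higher and 1 lower), 7 in LZK KO (all higher), 0 in double KO, 14 in ATF2 gRNA (2 higher and 12 lower) and 28 in JUN gRNA cells (7 higher and 21 lower). The shares of all genes called were 6.53% in DLK KO, 3.88% in LZK KO, 0.0658% in double KO, 6.1% in ATF2 gRNA and 15.9% in JUN gRNA cells. Leaving out 1 library took the DLK KO count to between 3 and 7 (3 without untreated replicate 1 or 2) and the LZK KO count to 4 without vincristine replicate 4. Fitting each line alone gave 11 for WT, 26 for DLK KO, 2 for LZK KO, 13 for double KO and 8 for ATF2 gRNA cells. Leaving out vincristine replicate 5 gave 9 in ATF2 gRNA cells. Shares of all genes called in these other settings are not given here, so their counts cannot be read as particular to the list.

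A list of 22 coreceptors and further guidance receptors outside the chosen families changed as follows. In WT 4 rose and 6 fell, and in Control gRNA cells 4 rose and 12 fell, against 30.2% and 35.3% of all genes called. In JUN gRNA cells 7 rose and 2 fell (15.9% of all genes), in DLK KO cells 4 rose and 1 fell (6.53%), in LZK KO cells 1 fell (3.88%) and in ATF2 gRNA cells 1 rose and 2 fell (6.1%). FLRT3, a partner of UNC5 and Robo receptors, rose by 1.84 ± 0.15 and 1.64 ± 0.14 (edgeR, adjusted p = 4.19e-12 and 2.51e-13), the receptor kinase MET by 1.75 and 1.34, and the netrin-binding receptor DSCAM by 0.90 and 2.33. RGMB, a ligand of neogenin, fell by 0.70 and 0.82, and FLRT2 by 0.92 and 0.46. In double KO cells none of the 22 was called (0.0658% of all genes), with FLRT3 at 0.09 ± 0.09 and DSCAM at -0.17 ± 0.11. In ATF2 gRNA cells FLRT3 stood at -0.27 ± 0.15 (adjusted p = 0.323).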

How the data were processed

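RNA was measured in 61 libraries made from poly(A) RNA with a stranded kit, per the labels' protocols, with the depths given above. The values deposited are raw counts for each gene, with a separate file per experiment. Per the submitters' processing notes, cutadapt 3.4, STAR, featureCounts and Subread 2.0.1 were used with GRCh38. The strand setting of the counting, and its treatment of marked duplicates, are not given in the sources used here. Of 58440 identifiers, 58320 were matched to a symbol through GENCODE 29. Column names gave the sample of each count column (0 unused).

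Each experiment was fitted on its own with the quasi-likelihood test of edgeR 4.0.16 in R 4.3.3 (filterByExpr by group, TMM factors, robust, all groups in 1 fit), on 18235 and 20759 genes. A gene was called at an adjusted p (Benjamini and Hochberg over all genes tested) under 0.05. The 19 comparisons were the vincristine effect in each line, differences between lines in that effect (interaction terms) and untreated lines against their control. The SE of a log2 fold change is its size over the root of the F statistic. CPM per kb divides by the exon length deposited with the counts. The precision of most values is limited by the number of libraries.

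The members, the lists of downstream genes, coreceptors and markers, and the tests were chosen with earlier results of these data known. Statistics were given for up to 12 called members in each direction in WT and Control gRNA and up to 5 in each other comparison, and the value in every library for members called in both control lines with a change of at least 1 (log2), the 3 largest called differences of double KO and ATF2 gRNA, and the 2 largest untreated differences of each line, with a mean log2 CPM of at least 1. Of the downstream genes, the 4 highest and 4 lowest called were eligible. Statistics and library values given beyond this rule, such as those of EPHA2, EFNB2 and the coreceptors, were chosen after their values were seen.

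Alternatives were DESeq2 1.42.0, RLE factors, no filter, keeping genes with a mean over 1 CPM, fitting just the groups compared, a replicate block, limma 3.58.1 voom with quality weights and leaving out each library. Offsets for GC content were added after seeing the data. On simulated data with 200 genes changed 2-fold, the test recovered 81.0% for the vincristine effect in WT (10 false calls) and 90.5% in Control gRNA cells (6 false calls), and 71.0% and 83.5% for the differences DLK KO minus WT (4 false calls) and ATF2 gRNA minus Control gRNA (6 false calls), on 18235 and 20759 genes. With no changed gene it called 0. The 200 genes were drawn from those with a mean over 1 CPM and changed in a single group, with independent counts. Recovery of rarer genes, of smaller changes or with many genes changed was not simulated. Among 104 pairs of replicates no library was a copy of another. Python 3.11.15, pandas 2.3.3, and matplotlib 3.10.9 were also used, with version 1.17.8 of data.table.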

Additional observations from a re-analysis of the deposited data

Results flagged for a closer look

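One library lay far from the rest of its group, by the ratio of its gap to the group's range, in 9 of the 168 groups of members examined, and chance gives about 1 in 20 groups. NRP1 was lowest in JUN gRNA vincristine replicate 5, at 29.0 CPM, and NRP2 was lowest in the same library, at 16.6 CPM. NRP2 was highest in JUN gRNA untreated replicate 5, at 19.0 CPM, and in ATF2 gRNA untreated replicate 3, at 35.0 CPM. EPHA4 was lowest in ATF2 gRNA untreated replicate 4, at 245.8 CPM, and NTN1 in LZK KO vincristine replicate 3, at 7.16 CPM. PLXNA4 was highest in WT untreated replicate 4, at 39.3 CPM. EPHA6 was lowest in WT untreated replicate 3, at 13.6 CPM, and in Control gRNA vincristine replicate 5, at 0.497 CPM.

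The vincristine effect differed between lines for the members below, by the interaction term of the edgeR fit at an adjusted p under 0.05. Values are the log2 effect in the first line minus that in the second.

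For DLK KO minus WT the higher effects were those of NTNG2 (1.26), EPHA8 (1.18), EPHA10 (1.02), EFNA3 (0.98) and SEMA4A (0.95), and the lower those of UNC5B (-2.95), DCC (-0.38) and EPHA3 (-0.33). For LZK KO minus WT they were NTNG2 (1.20), EFNA3 (0.91), SLIT3 (0.64), EFNA5 (0.64) and EPHA5 (0.63), against UNC5B (-3.00) and EPHA3 (-0.39). For double KO minus WT they were SEMA3D (1.18), NTNG2 (1.14), EPHA5 (0.93), EFNA3 (0.88) and EPHA7 (0.80), against UNC5B (-4.03), SEMA3B (-1.14), EFNB2 (-0.72), SEMA4F (-0.62) and NRP2 (-0.62). These 3 comparisons share the WT libraries. In DLK KO minus WT, the calls of DCC and EPHA8 were lost with GC offsets, those of DCC and EPHA10 in a fit restricted to the groups compared, and that of EPHA3 in 8 of 24 alternatives. In LZK KO minus WT, the SLIT3 call was lost in 10 of 24 alternatives, among them the replicate block and limma voom, and the EPHA3 call in 4. In double KO minus WT, the calls of SEMA3B and NRP2 were each lost in 5 of 24. For double KO minus DLK KO the lower effects were those of EPHB6 (-1.12) and EFNB2 (-0.96).

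For ATF2 gRNA minus Control gRNA the higher effects were those of SEMA3D (1.13), NRP1 (1.10), EPHA5 (1.03), SLIT3 (1.01) and EFNB1 (0.83), and the lower those of UNC5B (-2.21), NRP2 (-1.07), PLXNC1 (-0.77), SEMA3A (-0.71) and EFNB2 (-0.71). For JUN gRNA minus Control gRNA they were EPHA5 (0.79), NTN1 (0.74), EPHA4 (0.69), EPHA7 (0.62) and SEMA6A (0.57), against UNC5B (-1.35), NRP2 (-1.08), SEMA3E (-0.93), PLXNA4 (-0.69) and PLXNC1 (-0.63). Both share the Control gRNA libraries. The NTN1 call was lost in 7 of 28 alternatives and the SEMA3D call of ATF2 gRNA minus Control gRNA in 1 of 27. For ATF2 gRNA minus JUN gRNA they were SEMA3D (1.36), NRP1 (0.88), SLIT3 (0.63), EPHB2 (0.35) and EFNB3 (0.32), against UNC5B (-0.86), SEMA6A (-0.20) and EPHA4 (-0.19). The SEMA6A call was lost in 15 and the EPHA4 call in 13 of 27 alternatives, and the SEMA3D call in 2.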

How the results depend on the processing

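Of 222 called values of named members, 175 kept their call and direction in every alternative, 47 lost the call in at least 1, and none reversed (4116 of 4348 alternative values unchanged and 232 no longer past the threshold). Of 116 values not called, 88 stayed so, 28 passed the threshold in at least 1 alternative (79 of 2338 alternative values), and none reversed. Counts of called members stayed within 1.5 times of those reported except as follows, and the cause was not tested. Shares of all genes called in these settings are not given here, so the counts below have no background beside them. For the vincristine effect in DLK KO cells (12), limma voom gave 27, fitting just the compared groups gave 28, and leaving out 1 library gave 2 to 10, with 6 or fewer without DLK KO untreated replicate 1, 2 or 4 or vincristine replicate 1, 2 or 4. Fitting just the compared groups also gave 2 in LZK KO (5), 11 in double KO (0) and 4 in ATF2 gRNA cells (7). For the difference LZK KO minus WT (13), GC offsets gave 20 and the fit of only the groups 8. For double KO minus DLK KO (2), no filter gave 7, GC offsets 6, voom 27, DESeq2 5 and the fit of only the groups 29, and leaving out 1 library 1 to 4, with 1 without DLK KO untreated replicate 1 and 4 without DLK KO vincristine replicate 3. For ATF2 gRNA minus JUN gRNA (11), GC offsets gave 18 and leaving out 1 library 7 to 13, with 7 without ATF2 gRNA untreated replicate 2 or JUN gRNA vincristine replicate 3.

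Counts of downstream genes moved in the same settings, again with no share of all genes beside them. Fitting just the compared groups gave 11 in place of 25 for WT, 26 in place of 8 for DLK KO, 2 in place of 7 for LZK KO, 13 in place of 0 for double KO and 8 in place of 14 for ATF2 gRNA cells. In DLK KO cells voom gave 27 and leaving out 1 library 3 to 7, with 5 or fewer without untreated replicate 1 or 2 or vincristine replicate 1, 2 or 4. In LZK KO cells no filter gave 4 and leaving out 1 library 4 to 7, with 4 without vincristine replicate 4, and in ATF2 gRNA cells leaving out 1 library gave 9 to 15, with 9 without vincristine replicate 5.

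With the replicate number as a block, 33 members were called in WT, 39 in Control gRNA and 9 in DLK KO cells, and no count of members moved beyond 1.5 times. The numbers did not pair the libraries: correlations of same-numbered deviations ran from -0.542 to 0.27 in experiment 1 (15 of 112 over 0.1) and from -0.181 to 0.139 in experiment 2 (4 of 70), and 6 of 32 and 3 of 29 libraries correlated best with their own number. Depth limits rare members such as EPHA2, at 0.281 to 0.795 CPM in untreated WT.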
